A study of Homo sapiens with 9 samples.

Results

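The ERK feedback genes described here are 10 human genes that are transcribed as outputs of ERK signalling: the sprouty genes SPRY1, SPRY2 and SPRY4, the SPRED genes SPRED1, SPRED2 and SPRED3, the dual-specificity phosphatase genes DUSP4, DUSP5 and DUSP6, and PHLDA1. They were chosen by symbol, and each of the 10 matched 1 of the 22295 entries of the expression table. RNA-seq had been run on U251 cells, an established human glioblastoma line, in 9 libraries of 3 groups with 3 libraries each. The sh-Luci-3d group carried a control lentivirus with an shRNA against luciferase and was collected 3 days post infection (dpi). The sh-Ptbp1-3d and sh-Ptbp1-7d groups carried a lentivirus with an shRNA against PTBP1, an RNA-binding splicing regulator, and were collected at 3 and 7 dpi. All 3 groups share the parental line and lentiviral infection, and the PTBP1 groups rest on a single shRNA sequence. The study's methods move infected cells at 2 dpi into a neuronal induction medium that holds N2, B27, forskolin and dorsomorphin, while the labels of the sequenced libraries do not name the medium. A 7 dpi group with the control virus is not among the groups compared here. Knockdown, the additional days in culture and any longer time in the induction medium therefore cannot be told apart in any comparison with sh-Ptbp1-7d. The values are FPKM, fragments scaled to transcript length and to the mapped fragments of the library, and can be compared between genes because they are per length.

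ERK is the last kinase of a relay in which a growth factor receptor activates RAS, RAS activates RAF, RAF activates MEK and MEK phosphorylates ERK. Active ERK enters the nucleus and, through transcription factors of the ETS and AP-1 families, turns on genes whose products dampen the same relay. Sprouty proteins interfere between the receptor and RAF, SPRED proteins recruit the RAS inactivator neurofibromin to the membrane, and DUSP phosphatases remove the activating phosphates from ERK itself. Transcript levels of these genes are widely read as a record of recent ERK output, and in glioblastoma the relay is commonly driven by receptor tyrosine kinases.

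Promoter windows are shown for SPRY4 and DUSP6, from the members with the larger increases at 7 dpi, for SPRY2, whose increase was smaller, and for PHLDA1, which was not called. The sequences are from RefSeq on GRCh38.p14 and cover the 250 bases before an annotated start, 5′ to 3′ on the gene's strand: chr5:142324248-142324497, minus strand, for SPRY4; chr12:89352502-89352751, minus strand, for DUSP6; chr13:80341127-80341376, minus strand, for SPRY2, the farthest upstream of its 3 windows; and chr12:76031777-76032026, minus strand, for PHLDA1. Capitals mark CCGGAA, the core of many ETS binding sites, and TGACG, the short form of the cAMP response element, on either strand.
SPRY4: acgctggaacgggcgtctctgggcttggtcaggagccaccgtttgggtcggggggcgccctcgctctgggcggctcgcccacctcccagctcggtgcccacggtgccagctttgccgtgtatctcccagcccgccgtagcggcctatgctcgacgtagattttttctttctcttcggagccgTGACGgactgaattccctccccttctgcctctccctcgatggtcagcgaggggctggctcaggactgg
DUSP6: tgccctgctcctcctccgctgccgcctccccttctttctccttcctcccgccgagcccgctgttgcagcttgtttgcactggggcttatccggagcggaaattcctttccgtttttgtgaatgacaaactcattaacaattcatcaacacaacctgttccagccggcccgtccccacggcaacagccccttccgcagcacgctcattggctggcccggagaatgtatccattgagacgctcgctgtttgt
SPRY2: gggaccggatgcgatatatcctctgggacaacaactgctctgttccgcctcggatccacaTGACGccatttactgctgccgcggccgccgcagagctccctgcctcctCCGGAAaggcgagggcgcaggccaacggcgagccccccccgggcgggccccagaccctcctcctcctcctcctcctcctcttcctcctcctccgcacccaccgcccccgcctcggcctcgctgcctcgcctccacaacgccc
PHLDA1: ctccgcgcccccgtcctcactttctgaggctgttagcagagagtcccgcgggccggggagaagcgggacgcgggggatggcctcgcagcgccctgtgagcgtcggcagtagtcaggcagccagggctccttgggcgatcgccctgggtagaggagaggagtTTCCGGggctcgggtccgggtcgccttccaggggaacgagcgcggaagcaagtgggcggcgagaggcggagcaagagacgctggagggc
Windows were found for 8 of the 10 members, 13 windows in all, and none was found for DUSP4 and DUSP5. CCGGAA lay in 3 of the 13 windows, 1 window each of SPRY1, SPRY2 and PHLDA1, against 14.5% of all 34943 windows in the table. The longer ETS form CCGGAAGT lay in 0 of the 13, against 3.39% of all windows. TGACG lay in 2, those of SPRY2 and SPRY4, against 21.2% of all windows. The AP-1 motif TGANTCA lay in 1 window, of SPRED3, at 60 to 54 bases before the start, against 6.59%. The full cAMP response element TGACGTCA, which holds TGACG, and the CArG box of serum response factor lay in none of the 13, against 1.63% and 1.16% of all windows. The DUSP6 window held none of these letters, and the PHLDA1 window held CCGGAA at 89 to 84 bases before the start. These matches describe the letters of the windows and were not read as binding sites.

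Before the members, the libraries themselves were compared. PTBP1, the targeted gene, had 111, 112 and 124 FPKM in the sh-Luci-3d libraries, 66.2, 64.4 and 61.0 in sh-Ptbp1-3d and 49.7, 50.7 and 51.0 in sh-Ptbp1-7d. The sh-Ptbp1-3d mean was 0.552 of that in sh-Luci-3d, with a log2 difference of -0.85 (limma, adjusted p = 0.00314, with a range of 0.000327 to 0.0821 over the alternatives), which did not reach the 2-fold threshold. Replicate 3 of sh-Ptbp1-3d stood apart with 11.5 FPKM of the neuronal gene STMN2, which was listed at 0 in the other 8 libraries. The neuronal gene DCX had 2.14 FPKM in this library and at most 0.0346 in any other. Replicate 3 of sh-Luci-3d stood apart in the count of genes called between the 3 dpi groups, which was 2 with all libraries, 57 without this one and 0 or 1 without any other library of these groups. The 6 astroglial and glioma markers summed to 4418 to 4543 FPKM in sh-Luci-3d, 4528 to 4836 in sh-Ptbp1-3d and 1352 to 1477 in sh-Ptbp1-7d. VIM, which encodes vimentin, made up most of each sum, and not all 6 genes had a lower mean at 7 dpi. From sh-Ptbp1-3d to sh-Ptbp1-7d, S100B went from 0.115 ± 0.0577 to 0.797 ± 0.135 FPKM (SD, n = 3), a call that several alternatives end, and SOX2 from 125 ± 2.63 to 145 ± 6.28, not called. Of these 6 genes 4 had a mean of at least 1 FPKM, and GFAP and S100B, the usual astrocyte markers, did not. The 6 neuronal markers summed to 264 to 315, 333 to 353 and 154 to 162 FPKM in the same order. That sum is mostly TUBB3, which fell from 317 ± 4.57 to 118 ± 7.98 FPKM (SD, n = 3) between the sh-Ptbp1 groups, while MAP2 went from 20.3 ± 3.25 to 38.9 ± 4.22, a log2 difference of 0.94 (limma, adjusted p = 0.00058) that passed on adjusted p but not on fold. Of 8 blood and immune markers none had a mean of at least 1 FPKM, and CD3E was at 0 throughout. The astroglial and neuronal marker sums were lower at 7 dpi, where 9 of the 10 members described next were higher. The part of these marker changes in the members' values was not tested. In bulk RNA, fewer cells of a type and less RNA per cell cannot be told apart.

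At 3 dpi none of the 10 ERK feedback genes passed the thresholds against the control cells, and at 7 dpi 9 of them had risen from the level of sh-Ptbp1-3d. Each difference was tested with limma on log2(FPKM + 0.1) over the 15551 entries with a mean of at least 0.1 FPKM, with all 9 libraries in the fit, and p-values were adjusted by the Benjamini-Hochberg method over all of these entries. A gene was counted as changed above a 2-fold difference with an adjusted p under 0.05 between the 3 dpi groups, or under 0.01 in the comparisons with sh-Ptbp1-7d. With sh-Ptbp1-3d set against sh-Luci-3d, 0 of the 10 members changed, where 0.0129% of all entries did (2 entries, and 57 without replicate 3 of sh-Luci-3d, with 0 members in both cases). Of the 10 members 0 had an unadjusted limma p under 0.05, where 7.24% of all entries did. From sh-Ptbp1-3d to sh-Ptbp1-7d, 9 of the 10 rose and 0 fell, where 8.31% of all entries rose and 14.2% changed in either direction. Over all entries this was 1293 higher and 918 lower, and 1552 and 808 with TPM or 1039 and 1081 with quantile normalization. In these 9 genes the libraries of the sh-Ptbp1 groups did not overlap, and 35.3% of all entries were higher at 7 dpi without overlap. The median log2 difference of the 10 members was 2.05, and that of all entries was 0.09. The members were chosen with earlier results of these data known, so their count and median are not independent evidence of their direction. The increases fell into a high range for SPRY1, SPRY2, SPRY4, DUSP4 and DUSP6, from 2.62 to 3.82 on the log2 scale, and a lower range for the 3 SPRED genes and DUSP5, from 1.04 to 1.49.

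**Figure D1:**
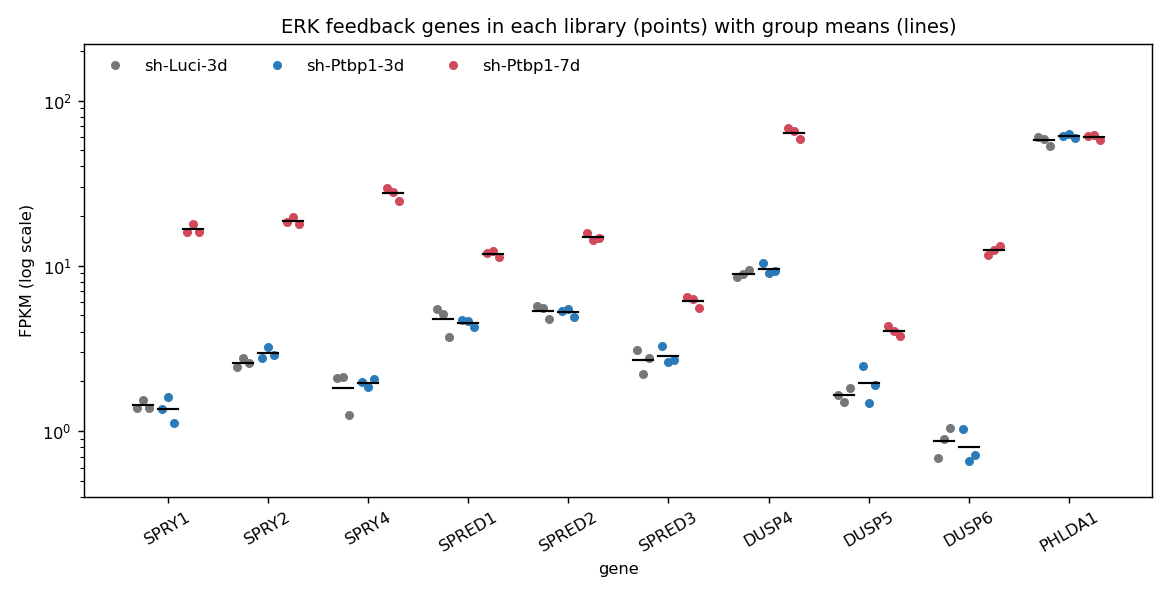
FPKM of the 10 ERK feedback genes in each of the 9 libraries on a log axis, with points for libraries, colours for the 3 groups and a line at each group mean. For 9 genes the 3 sh-Ptbp1-7d points lie above all 6 points of the 3 dpi groups, from 1.53 times the highest of them for DUSP5 to 11.7 times for SPRY4, while the PHLDA1 points of all groups lie between 53.1 and 62.4 FPKM. Of the 15551 entries tested, 5493 had all 7 dpi libraries above those of sh-Ptbp1-3d and 5102 above those of sh-Luci-3d. The share above both groups at once was not counted.

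The sprouty genes encode membrane-recruited adaptors that hold back signalling between receptors and RAF, and all 3 rose at 7 dpi. SPRY1 (GRCh38 chromosome 4, 123396795 to 123403760) had 1.39, 1.54 and 1.37 FPKM in sh-Luci-3d, 1.37, 1.59 and 1.12 in sh-Ptbp1-3d, and 16.1, 17.9 and 16.0 in sh-Ptbp1-7d. The 2 groups of 3 dpi overlapped, and the lowest 7 dpi library had 10.01 times the highest of the 6 earlier libraries. The SPRY1 mean went from 1.36 ± 0.239 (SD, n = 3) in sh-Ptbp1-3d to 16.7 ± 1.11 in sh-Ptbp1-7d, a 12.3-fold ratio of means and a log2 difference of 3.53 (SE 0.14, limma, adjusted p = 2.15e-08). SPRY4 (chromosome 5, 142310427 to 142326455) had 2.10, 2.12 and 1.26 FPKM in sh-Luci-3d, 1.98, 1.85 and 2.06 in sh-Ptbp1-3d, and 29.5, 27.9 and 24.7 in sh-Ptbp1-7d. Replicate 3 of sh-Luci-3d was the lowest SPRY4 value, and without it the log2 difference between the 3 dpi groups went from 0.14 to -0.10, neither called. From 3 to 7 dpi SPRY4 rose 13.9-fold in the ratio of means, from 1.96 ± 0.110 to 27.4 ± 2.44 FPKM (SD, n = 3), with a log2 difference of 3.73 (SE 0.18, limma, adjusted p = 7.49e-08).

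SPRY2, the sprouty gene with the highest level at 3 dpi, rose less than SPRY1 and SPRY4. SPRY2 (chromosome 13, 80335976 to 80340951) had 2.44, 2.77 and 2.58 FPKM in sh-Luci-3d, 2.78, 3.23 and 2.86 in sh-Ptbp1-3d, and 18.4, 19.8 and 17.9 in sh-Ptbp1-7d. It was the member of the 10 whose 3 dpi groups did not overlap, by the gap between 2.77 and 2.78 FPKM, where the groups of 10.8% of all entries did not overlap. That difference was 0.18 on the log2 scale (95% interval -0.05 to 0.41, limma, adjusted p = 0.753) and was not called. Between the sh-Ptbp1 groups SPRY2 rose 6.32-fold in the ratio of means, from 2.96 ± 0.240 to 18.7 ± 1.01 FPKM (SD, n = 3), a log2 difference of 2.62 (SE 0.10, limma, adjusted p = 2.15e-08). The fourth sprouty gene, SPRY3, is no member and was named after its values were seen. It had 0.593 ± 0.0391, 0.453 ± 0.0466 and 0.633 ± 0.136 FPKM (SD, n = 3) in the 3 groups, with a log2 difference of 0.39 between the sh-Ptbp1 groups that was not called (limma, adjusted p = 0.146).

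Among the 3 sprouty members, SPRY2 and SPRY4 changed places between 3 and 7 dpi, while SPRY1 had the lowest mean in every group. SPRY2 made up 44.6% ± 4.42 of the summed FPKM of SPRY1, SPRY2 and SPRY4 in sh-Luci-3d, 47.1% ± 1.57 in sh-Ptbp1-3d and 29.8% ± 0.936 in sh-Ptbp1-7d (SD, n = 3). SPRY4 made up 30.8% ± 5.93, 31.4% ± 3.34 and 43.6% ± 2.19 of it. Within single libraries the ratio of SPRY4 to SPRY2 was 0.860, 0.767 and 0.487 in sh-Luci-3d, 0.714, 0.571 and 0.721 in sh-Ptbp1-3d, and 1.61, 1.41 and 1.38 in sh-Ptbp1-7d, so that SPRY4 exceeded SPRY2 in each 7 dpi library and in none of the earlier ones. The 3 genes together summed to 5.85 ± 0.612, 6.28 ± 0.340 and 62.8 ± 3.71 FPKM. This ratio and the others below were chosen after the values were seen and are given without a test.

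The SPRED genes, whose products share the sprouty domain and act with neurofibromin on RAS, rose too, by about the threshold to just under 3-fold. SPRED2 (chromosome 2, 65310851 to 65432637) had 5.70, 5.56 and 4.76 FPKM in sh-Luci-3d, 5.35, 5.51 and 4.93 in sh-Ptbp1-3d, and 15.8, 14.3 and 14.7 in sh-Ptbp1-7d. Its 7 dpi libraries were at least 2.51 times every earlier library, and the log2 difference between the sh-Ptbp1 groups was 1.49 (SE 0.10, limma, adjusted p = 9.00e-07). SPRED1 (chromosome 15, 38252326 to 38357249), the gene mutated in Legius syndrome, had 5.47, 5.10 and 3.72 FPKM in sh-Luci-3d, 4.72, 4.62 and 4.24 in sh-Ptbp1-3d, and 11.9, 12.4 and 11.2 in sh-Ptbp1-7d. Its control libraries spanned all 3 sh-Ptbp1-3d values, and the log2 difference from 3 to 7 dpi was 1.37 (SE 0.14, limma, adjusted p = 1.56e-05).

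SPRED3, the SPRED gene with the lowest level in every group, passed the 2-fold threshold by a small margin. SPRED3 (chromosome 19, 38388421 to 38399587) had 3.07, 2.20 and 2.75 FPKM in sh-Luci-3d, 3.25, 2.62 and 2.68 in sh-Ptbp1-3d, and 6.45, 6.29 and 5.52 in sh-Ptbp1-7d. The log2 difference between the sh-Ptbp1 groups was 1.07 (SE 0.15, 95% interval 0.75 to 1.40, limma, adjusted p = 0.000146), and it was 0.88 with a pseudocount of 1, 0.99 with median-ratio scaling and 0.94 with quantile normalization, which end the call on fold but not on adjusted p. The 3 SPRED genes together summed to 12.8 ± 1.51, 12.6 ± 0.743 and 32.8 ± 1.36 FPKM (SD, n = 3) in the control, the 3 dpi and the 7 dpi group. The ratio of SPRED2 to SPRED1 within libraries averaged 1.14 ± 0.126, 1.16 ± 0.0285 and 1.26 ± 0.0920 in the same groups, whose libraries overlapped. At 3 dpi the SPRED sum was above the sprouty sum, and at 7 dpi the sprouty sum was above the SPRED sum, in every library.

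**Figure D2:**
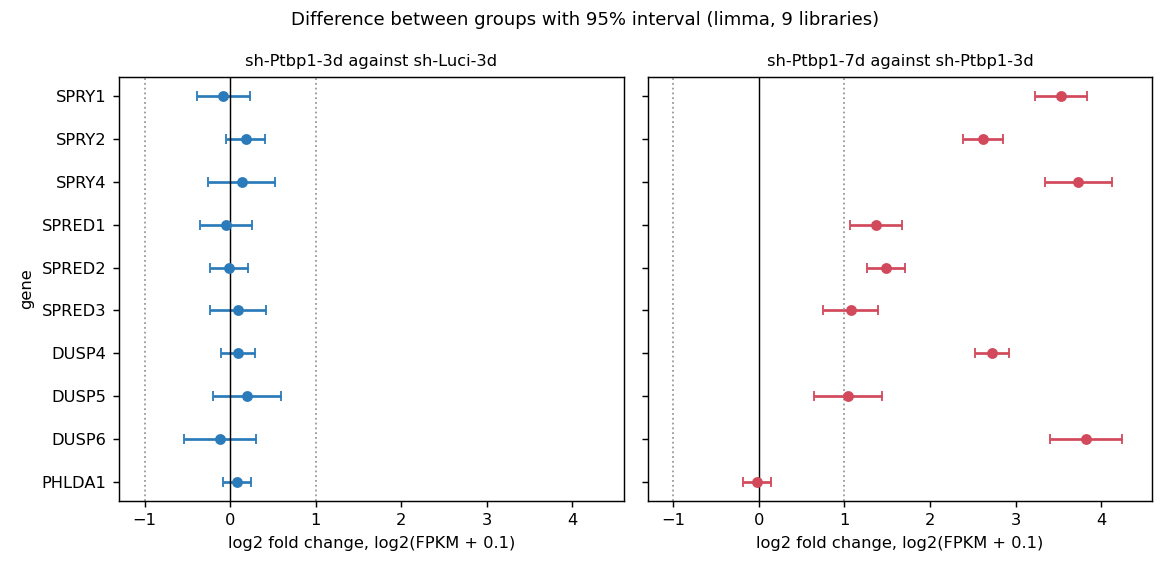
Log2 difference of log2(FPKM + 0.1) with its 95% interval from limma for each of the 10 genes, sh-Ptbp1-3d against sh-Luci-3d on the left and sh-Ptbp1-7d against sh-Ptbp1-3d on the right, with dotted lines at a 2-fold change. On the left each interval holds 0. On the right 9 intervals lie above 0, with the highest estimate at 3.82 for DUSP6, while the interval of PHLDA1 holds 0.

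Of the ERK phosphatases, the cytoplasmic DUSP6 and the nuclear DUSP4 rose strongly and the nuclear DUSP5 by about 2-fold. DUSP6 (chromosome 12, 89347232 to 89353271), an ERK-specific phosphatase, had 0.684, 0.895 and 1.04 FPKM in sh-Luci-3d, 1.03, 0.657 and 0.714 in sh-Ptbp1-3d, and 11.7, 12.5 and 13.2 in sh-Ptbp1-7d. It was the lowest member in both 3 dpi groups, and its lowest 7 dpi library was 11.2 times the highest earlier one. The DUSP6 mean rose 15.6-fold, from 0.799 ± 0.199 to 12.4 ± 0.763 FPKM (SD, n = 3), a log2 difference of 3.82 (SE 0.19, limma, adjusted p = 9.16e-08), which ranked 48 of the 15551 entries. With a pseudocount of 1 the log2 differences of the low genes shrank, to 2.91 for DUSP6, 2.91 for SPRY1 and 3.26 for SPRY4, so the order of these 3 depends on it. In the GENCODE 29 annotation 1875 exon bases of DUSP6 are shared with an antisense gene that has no row in the table, and since the counting is not stated to use strand, reads of the pair cannot be told apart.

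DUSP4 had the highest level of these 3 phosphatase genes in every group and came level with PHLDA1 at 7 dpi. DUSP4 (chromosome 8, 29333064 to 29350668) had 8.57, 8.88 and 9.37 FPKM in sh-Luci-3d, 10.4, 9.04 and 9.25 in sh-Ptbp1-3d, and 68.1, 65.1 and 58.6 in sh-Ptbp1-7d. Each 7 dpi library was at least 5.65 times every earlier one, and the log2 difference between the sh-Ptbp1 groups was 2.73 (SE 0.09, limma, adjusted p = 7.02e-09), a 6.69-fold ratio of means. DUSP5 (chromosome 10, 110497838 to 110511544), which dephosphorylates ERK and anchors it in the nucleus, had 1.65, 1.51 and 1.83 FPKM in sh-Luci-3d, 2.48, 1.47 and 1.91 in sh-Ptbp1-3d, and 4.34, 4.02 and 3.78 in sh-Ptbp1-7d. Its 7 dpi libraries were at least 1.53 times the earlier ones, the smallest gap of the 9 members that rose.

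The DUSP5 call was the least secure of the 9. Its log2 difference was 1.04 (SE 0.18, 95% interval 0.65 to 1.43, limma, adjusted p = 0.000672), and it was 0.86 without replicate 2 of sh-Ptbp1-3d and 0.99 without replicate 1 of sh-Ptbp1-7d, both under 2-fold with an adjusted p still under 0.01. With a pseudocount of 1, median-ratio scaling and quantile normalization it was 0.78, 0.96 and 0.87. DUSP4 made up 78.0% ± 1.22, 77.9% ± 3.09 and 79.4% ± 1.74 (SD, n = 3) of the summed FPKM of the 3 phosphatases in the 3 groups. Beside it the smaller shares traded places, DUSP5 from 15.7% ± 2.36 in sh-Ptbp1-3d to 5.02% ± 0.115 in sh-Ptbp1-7d and DUSP6 from 6.43% ± 0.836 to 15.5% ± 1.81. The ratio of DUSP6 to DUSP4 within libraries was 0.0973 ± 0.0161, 0.0829 ± 0.0140 and 0.196 ± 0.0272 in the 3 groups, and each 7 dpi library was above all earlier ones.

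**Figure D3:**
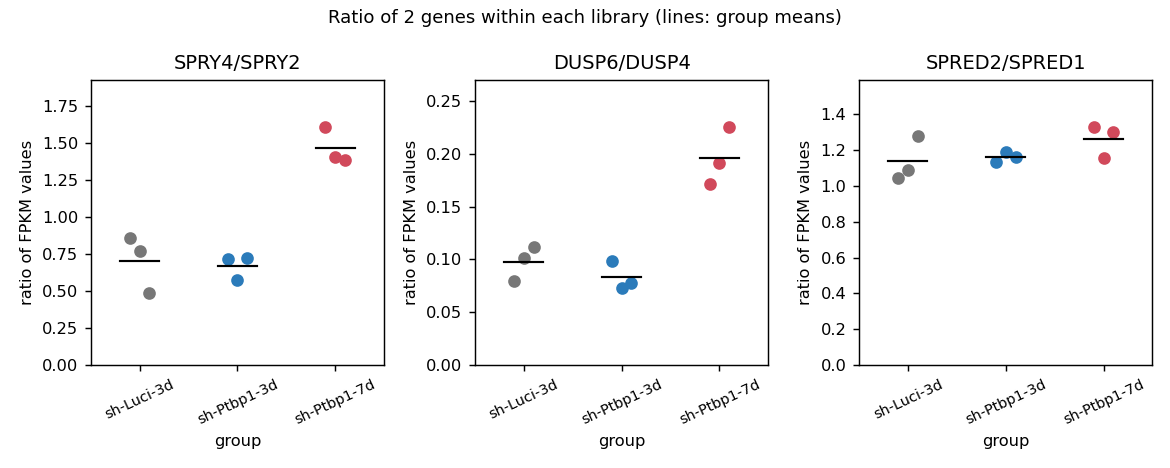
Ratio of the FPKM values of 2 genes within each library, for SPRY4 over SPRY2, DUSP6 over DUSP4 and SPRED2 over SPRED1, with a point for each library, a line at the group mean and axes from 0. The first 2 ratios are higher in all 3 sh-Ptbp1-7d libraries than in the 6 earlier ones (means 1.47 and 0.196 at 7 dpi), while those of SPRED2 over SPRED1 overlap.

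PHLDA1, a pleckstrin homology-like domain protein that is induced by growth factor signalling in many cells, had the highest level of the 10 genes at 3 dpi and was the member not called at 7 dpi. PHLDA1 (chromosome 12, 76025447 to 76033932) had 60.5, 58.7 and 53.1 FPKM in sh-Luci-3d, 60.9, 62.4 and 59.1 in sh-Ptbp1-3d, and 60.8, 61.7 and 57.7 in sh-Ptbp1-7d. All 3 groups overlapped. The log2 difference between the sh-Ptbp1 groups was -0.02 (95% interval -0.18 to 0.14, limma, adjusted p = 0.857), an interval that leaves out a change of 2-fold in either direction and whose sign turned with TPM (0.08) and quantile normalization (0.02). In the annotation 553 and 779 exon bases of PHLDA1 are shared with each of 2 antisense genes without a row in the table.

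Comparing sh-Ptbp1-7d with the control cells gave the same 9 members above the thresholds, where 8.93% of all entries were called higher. This comparison shares its 7 dpi libraries with the one above and is not independent of it. The log2 differences were 3.45 for SPRY1, 2.80 for SPRY2 and 3.87 for SPRY4, 1.31, 1.47 and 1.17 for SPRED1, SPRED2 and SPRED3, and 2.82, 1.24 and 3.70 for DUSP4, DUSP5 and DUSP6. PHLDA1 had a difference of 0.07 (limma, adjusted p = 0.491), and -0.04 with median-ratio scaling. Between the 3 dpi groups, the members' intervals left out a 2-fold change for each of the 10 genes: the widest, for DUSP6, ran from -0.54 to 0.30 and the highest upper bound, for DUSP5, was 0.59.

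Ordered by level, the members kept their places between the 3 dpi groups more than between 3 and 7 dpi. In sh-Luci-3d the order was PHLDA1, DUSP4, SPRED2, SPRED1, SPRED3, SPRY2, SPRY4, DUSP5, SPRY1 and DUSP6. The neighbours with overlapping libraries were SPRED2 with SPRED1, SPRED3 with SPRY2, SPRY4 with DUSP5, and DUSP5 with SPRY1. In sh-Ptbp1-3d the order was the same but for SPRY2 and SPRED3, which overlapped and changed places, and SPRED2 lay above SPRED1 without overlap. In sh-Ptbp1-7d DUSP4 and PHLDA1 overlapped at the top, followed by SPRY4, by SPRY2 and SPRY1, which overlapped, and by SPRED2. After these came DUSP6 and SPRED1, which overlapped, then SPRED3, and then DUSP5 without overlap. SPRY4 thus stood next to the top pair at 7 dpi, and DUSP6 had left the last place to DUSP5.

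The genes around these feedback genes were read from 4 lists in the same comparison of sh-Ptbp1-7d with sh-Ptbp1-3d. Of 7 other MAP kinase phosphatase genes, 6 were tested, 2 rose and 0 fell, where 8.31% of all entries rose and 5.9% fell. The median log2 difference of the 6 was 0.61. DUSP1, the immediate-early phosphatase that acts on p38, JNK and ERK, went from 19.0 ± 1.79 to 40.4 ± 1.67 FPKM (SD, n = 3), a log2 difference of 1.09 (limma, adjusted p = 1.63e-05). DUSP16, a JNK phosphatase, rose 2.25-fold in the ratio of means, a log2 difference of 1.14, which was 0.90 with a pseudocount of 1 and 0.99 with quantile normalization. DUSP7, a cytoplasmic ERK phosphatase, and DUSP8 passed on adjusted p but not on fold, with log2 differences of 0.63 and 0.60. DUSP2 and DUSP10 had differences of 0.21 and -0.16, neither called. DUSP9 was not tested because of its low level.

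Of 11 other genes transcribed downstream of ERK, 6 rose and 0 fell, where 8.31% of all entries rose and 5.9% fell. The median log2 difference of the 11 genes was 1.35. The list holds ETV1, ETV4 and ETV5, which were put on it with results of these data known, as were the members and the other lists chosen. Its count is thus not independent evidence of its direction. ETV5, an ETS factor of the PEA3 group, had 3.35, 3.57 and 3.45 FPKM in sh-Ptbp1-3d and 42.7, 43.6 and 39.4 in sh-Ptbp1-7d, a log2 difference of 3.56 (limma, adjusted p = 1.05e-09). Its relatives ETV1 and ETV4 rose by 2.96 and 2.67 on the log2 scale. The immediate-early factors EGR1 and FOS rose by 2.41 and 2.45, FOS from 0.461 ± 0.206 to 2.82 ± 0.377 FPKM. With a pseudocount of 1 the differences of ETV4 and FOS were 1.85 and 1.39, both still called. EPHA2, an ephrin receptor, rose from 43.2 ± 1.93 to 110 ± 5.28 FPKM, or by 1.35 on the log2 scale. CCND1, IER3 and EPHA4 passed on adjusted p with differences of 0.83, 0.83 and 0.48 that did not reach 2-fold. MYC had a difference of -0.62 (limma, adjusted p = 0.0125) and was not called.

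**Figure D4:**
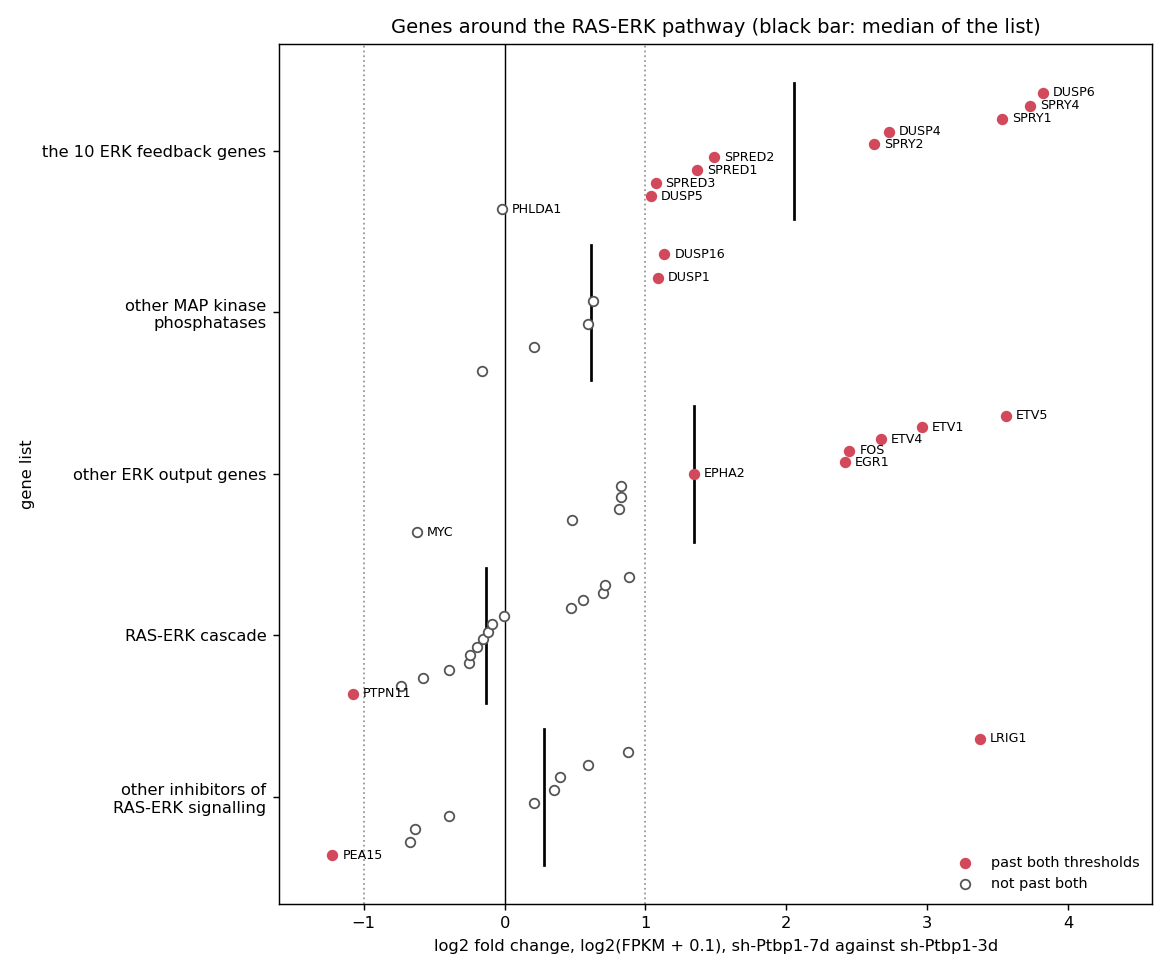
Log2 difference of log2(FPKM + 0.1), sh-Ptbp1-7d against sh-Ptbp1-3d, for each tested gene of the 10 ERK feedback genes and of 4 lists around the pathway, with filled points past both thresholds, a black bar at each list's median and dotted lines at a 2-fold change. The medians are 2.05 for the feedback genes, 0.61 for other MAP kinase phosphatases, 1.35 for other ERK output genes, -0.14 for the RAS-ERK cascade and 0.28 for other inhibitors.

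Of the 16 genes of the cascade itself, from adaptors to ERK, 0 rose and 1 fell, and their median log2 difference was -0.14. Over all entries 8.31% rose and 5.9% fell. PTPN11, which encodes the phosphatase SHP2 that passes receptor signals to RAS, fell from 28.3 ± 0.760 to 13.5 ± 2.10 FPKM (SD, n = 3), a log2 difference of -1.08 (limma, adjusted p = 4.06e-05), and the call was lost with TPM (-0.98) and without replicate 3 of sh-Ptbp1-7d (-0.95). The abundant cascade genes SHC1, MAP2K2 and GRB2 had differences of -0.09, -0.39 and -0.24, none called, and the sign for SHC1 turned with TPM and quantile normalization. On adjusted p at any fold, 4 of the 16 were higher, from ARAF at 0.47 and SOS2 at 0.70 to KSR1, where 20.3% of all entries were. Another 3 were lower, where 15.5% of all entries were, among them PTPN11 and MAPK3, which encodes ERK1, at -0.58 (limma, adjusted p = 0.000533). KSR1, a scaffold for RAF, MEK and ERK, had a difference of 0.88 (limma, adjusted p = 9.03e-06), under 2-fold here, and of 1.01 against sh-Luci-3d, where it was called.

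Of 10 other inhibitors of the pathway, 1 rose and 1 fell, with a median log2 difference of 0.28, where 8.31% of all entries rose and 5.9% fell. LRIG1, a membrane protein that promotes the breakdown of receptors of the EGFR family, rose from 7.16 ± 0.290 to 75.4 ± 5.38 FPKM (SD, n = 3), a 10.5-fold ratio of means and a log2 difference of 3.38 (limma, adjusted p = 1.87e-09), within the range of the sprouty genes. PEA15, a cytoplasmic anchor of ERK, fell from 85.1 ± 3.30 to 36.5 ± 2.15 FPKM, a difference of -1.22 (limma, adjusted p = 6.91e-07). PEBP1, the RAF kinase inhibitor protein, RASA1, a RAS GTPase-activating protein, and CBL, a ubiquitin ligase of receptors, passed on adjusted p with differences of -0.40, -0.64 and -0.67 that did not reach 2-fold. In the other direction NF1, the gene of neurofibromin, went from 4.42 ± 0.682 to 8.24 ± 1.74 FPKM, a difference of 0.87 (limma, adjusted p = 0.00562) that passed on adjusted p but not on fold. ERRFI1, an inhibitor of EGFR, had a difference of 0.35 and was not called. Between the 3 dpi groups none of the genes of these 4 lists was called by limma, and 1 of the 43 tested had an unadjusted p under 0.05, against the 7.24% of all entries given above. Against sh-Luci-3d, limma called 2, 6, 1 and 1 of the 4 lists higher at 7 dpi and 0, 0, 1 and 1 lower. Of all entries 8.93% were called higher and 5.68% lower.

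Over the 9 libraries the 9 members that rose followed each other, with Pearson correlations of log2(FPKM + 0.1) from 0.894 for SPRED1 with DUSP5 to 0.996, while PHLDA1 correlated with them at 0.098 to 0.326. These 9 points share 3 groups, so the values describe the step at 7 dpi and carry no p. Among 11340 genes with a symbol and a mean of at least 1 FPKM, the genes most alike to SPRY1 were ZFP36L1 and SEC61A1, to SPRY2 BATF2 and SH3BP5, to SPRY4 IL13RA1 and NR4A2, to DUSP4 KCNE4 and BTN2A1, and to DUSP6 HAP1 and C1QTNF1, each with an r of 0.998 or above after rounding. For SPRED1 they were FAM184A and ZNF561, for SPRED2 STC1 and RND3, for SPRED3 KAT8 and ZFP41, and for DUSP5 TMEM51 and KANSL2, from 0.998 for FAM184A down to 0.984 for KANSL2. The r does not measure the size of a step, which differed. Between the sh-Ptbp1 groups SEC61A1 went from 94.6 to 160 FPKM and IL13RA1 from 11.8 to 20.4, smaller ratios than those of SPRY1 and SPRY4. BATF2 went from 0.508 to 14.7 FPKM, a larger ratio than that of SPRY2. PHLDA1 was most like WWTR1, with an r of 0.982 and means of 25.9, 28.24 and 28.03 FPKM in the 3 groups, and ABI2, with 0.955. Without replicate 3 of sh-Ptbp1-3d, the library with STMN2, and without replicate 3 of sh-Luci-3d, 9 members remained above the thresholds between the sh-Ptbp1 groups.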

How the data were processed

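The authors deposited FPKM values per gene for 9 RNA-seq libraries of U251 cells, 3 in each of 3 groups given by the sample titles, made from Illumina reads that they filtered and aligned. The submitters' processing notes name HISAT2 and GRCh38. The counting program, its version and its use of strand were not given in the sources used here. Besides 19932 named genes the table holds 2363 assembled loci, whose positions in the deposited file were used to look for overlaps with the members, and 0 were found. FPKM summed to 367412 to 404922 per library. The low values do not fall into steps of whole reads, so the depth is unknown, no counting interval can be given, and only the 3 libraries per group set the precision. Nothing says that the replicates came from separate cultures, so the p-values measure only the spread between these libraries, which may be technical.

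From the deposited FPKM, log2(FPKM + 0.1) was fitted in R 4.3.3 with limma 3.58.1 (eBayes with an intensity trend), with all 9 libraries in 1 model of 3 groups, over the 15551 entries whose mean reached 0.1 FPKM, and p-values were adjusted by the Benjamini-Hochberg method. The fit was also run on simulated data with 200 changed genes and independent normal noise. Such data hold no outlying library, so that run does not cover the libraries that stood apart. The thresholds (2-fold, adjusted p under 0.05 between the 3 dpi groups and under 0.01 between the sh-Ptbp1 groups) are those of the study's methods, which give none for the comparison of sh-Ptbp1-7d to the control, where 0.01 was used. Between the 3 dpi groups the study reports many more changed genes than the 2 called here. The study names no tool for its test, and the reason for this gap was not tested. Adding 0.1 FPKM pulls the fold of low genes towards 1, so ratios of mean FPKM are given beside it. The members and lists were chosen with earlier results of these data known. Named were the 10 members, PTBP1, the genes of 4 pathway lists that were called in any comparison, otherwise up to 4 per list with the highest mean FPKM, and the 2 genes most correlated with each member. SPRY3, STMN2, DCX, VIM, TUBB3, MAP2, S100B, SOX2, NF1, SOS2, ARAF and MAPK3 were named after their values were seen. Values of some listed genes are not reported here. Positions are from GENCODE 29 on GRCh38, where 97.6% of the named genes matched, and promoters from RefSeq on GRCh38.p14. Alternatives were other pseudocounts and filters, TPM, median-ratio scaling, quantile normalization, 2 groups alone, no intensity trend, a replicate block and leaving out each library. Tables and plots were made with Python 3.11.15, pandas 2.3.3 and matplotlib 3.10.9.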

Additional observations from a re-analysis of the deposited data

How the results depend on the processing

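The number of members called was 0 between the 3 dpi groups under each of the 19 alternatives, 7 to 9 between the sh-Ptbp1 groups (8 to 9 when a library was left out) and 7 to 9 for sh-Ptbp1-7d relative to the control (9 whichever library was left out). SPRED3 and DUSP5 account for the losses, through the fold threshold, and with a pseudocount of 1 they had 0.95 and 0.92 against sh-Luci-3d. Over all genes tested, the count between the 3 dpi groups was 2, with 1 under a pseudocount of 0.01, a filter at 1 FPKM, values as TPM, median-ratio scaling, quantile normalization and no intensity trend, 0 with the 2 groups alone, and 0 to 57 when a library was left out, 57 without replicate 3 of sh-Luci-3d. Over all genes, a pseudocount of 1 gave 1255 calls between the sh-Ptbp1 groups (2211 as reported) and 1269 for sh-Ptbp1-7d relative to the control (2271); it shrinks the fold of low genes by its construction. The median log2 difference of all entries at 7 dpi against sh-Ptbp1-3d was 0.09 as reported, 0.20 with TPM, 0.01 with median-ratio scaling and -0.01 with quantile normalization. Of the marker genes, S100B lost its call with a pseudocount of 1 (0.69 on the log2 scale) or 0.01, and without replicate 3 of sh-Ptbp1-3d or replicate 1 of sh-Ptbp1-7d, and MAP2 was called with TPM (1.04) and without replicate 3 of either sh-Ptbp1 group. NF1 was called without replicate 3 of sh-Ptbp1-7d (1.06), and its highest adjusted p over the alternatives was 0.0349.

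Replicate numbers did not mark pairs: deviations of libraries with the same number correlated at -0.032 to 0.051 (9 pairs), and those with different numbers at -0.073 to 0.061 (18 pairs). With the replicate number as a block, all genes gave 0 calls between the 3 dpi groups, and 9 members were called in each comparison with sh-Ptbp1-7d.

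When a library was left out, the log2 difference between the 3 dpi groups changed sign for 6 members, none called: it ranged from -0.196 to 0.0435 for SPRY1, -0.0986 to 0.256 for SPRY4, -0.218 to 0.0540 for SPRED1, -0.0972 to 0.0305 for SPRED2, -0.0344 to 0.196 for SPRED3 and -0.294 to 0.00407 for DUSP6. Between the sh-Ptbp1 groups it ranged from -0.0387 to 0.0106 for PHLDA1. With TPM and quantile normalization it was 0.0832 and 0.0155 for PHLDA1 and 0.0105 and 0.0757 for SHC1, and against sh-Luci-3d that of PHLDA1 was -0.0351 with median-ratio scaling. The cause of these sign changes was not tested. With no counts deposited, what depth limits could not be measured.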
